A study of Mus musculus with 24 samples.

Results

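Bone of wild-type female mice was compared between 6 and 3 months of age, an interval that spans the end of rapid skeletal growth. The comparison used 6 of the 24 arrays of the series, those titled as wild type at 6 months (3 arrays) and at 3 months (3 arrays), and it was read across 22180 genes. Total RNA came from tibia and femur, with the marrow of the tibia flushed out first. The mice ate standard chow and were kept at 24 °C. Neither wild-type group carried a transgene. The other genotype, HSD2OB-tg, carries an osteoblast-targeted transgene for Hsd11b2, the enzyme that inactivates glucocorticoids. Its 3 arrays at 6 months and 3 arrays at 3 months are used below as a second set. The 12 remaining arrays, of both genotypes at 12 and 18 months, enter the estimate of the spread. The series calls its triplicates biological, but no label ties an array to 1 animal, so the p-values reflect sample-to-sample spread, part of which may be technical. Hsd11b2 itself read 3.98, 3.73 and 3.60 on the 3-month arrays and 3.65, 3.68 and 3.60 on the 6-month arrays, with a fitted difference of -0.15 (limma, adjusted p = 0.893).

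In a growing bone, cartilage cells of the growth plate line up in columns, enlarge and are replaced by bone, while osteoblasts on every bone surface secrete collagen and then mineral. Collagen is folded and hydroxylated inside the endoplasmic reticulum, carried out in large vesicles, trimmed, and cross-linked outside the cell. Osteocytes are osteoblast descendants buried in the matrix. Bone also holds osteoclasts, which resorb it, and the blood-forming and fat cells of the marrow, and muscle fibres cling to its outer surface.

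The values are log2 signals, so a difference of 1 is a 2-fold change. The samples read as bone: Col1a1, the main bone collagen, lay between 11.93 and 13.22 on the 6 arrays, and Ibsp, a sialoprotein of mineralising matrix, between 10.44 and 11.81. Correlations between the 6 arrays, taken across genes, ran from 0.965 to 0.988. Some of the arrays stood apart in RNA of other tissues. The mean of 26 skeletal muscle genes was 4.58 on replicate 1 at 3 months, 7.08 and 7.18 on the other two 3-month arrays, and 9.16, 9.85 and 9.01 at 6 months. The mean of 15 erythroid genes was 7.80 on replicate 1 at 6 months and between 8.29 and 8.97 on the other arrays. The arrays also carry a code whose prefix, HEN513 or HEN753 here, has no stated meaning. Replicates 1 and 2 at 3 months and replicate 2 at 6 months have HEN513. Replicate 3 at 3 months and replicates 1 and 3 at 6 months have HEN753. A value within a prefix therefore sets 1 array of one age against 2 of the other. Each difference below is fitted with a term for this prefix, so it can depart slightly from the difference of the 2 group means.

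By limma with Benjamini-Hochberg adjustment over all 22180 genes, 93 genes (0.419%) passed an adjusted p of 0.05. The 73 that were lower at 6 months (0.329% of genes) included genes of collagen making, secretion and cell contact. The 20 that were higher (0.0902%) included genes known from muscle and from phagocytes. At an unadjusted p under 0.05 there were 1441 lower and 1083 higher genes, together 11.4% of those tested. The median difference over all genes was -0.01, and 51.6% of genes lay below 0. These shares are the background for the counts of each gene list below. Losses ran from -0.65 to -2.50 and had a median of -1.28, and 59 of the 73 came to 2-fold or more. Gains ran from 0.59 to 3.77 with a median of 1.76, and 16 of the 20 came to 2-fold or more.

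The groups were nearly all separated among these genes, which passing the test itself favours. For 72 of the 73 lower genes every 6-month array lay below every 3-month array, the exception being Fstl4, and for all 20 higher genes every 6-month array lay above. Over all genes such separation was found in 8.79% downward and 6.95% upward. Within the lower genes the arrays kept a common order. Replicate 2 at 6 months was the lowest 6-month array for 58 of the 73 and replicate 1 the highest for 55, and replicate 1 at 3 months was the highest 3-month array for 59. The length of the list rested on single arrays: it was 3 genes without replicate 2 at 6 months, 4 without replicate 3 at 6 months, 8 without replicate 1 at 3 months, 28 without replicate 2 at 3 months, 43 without replicate 1 at 6 months and 88 without replicate 3 at 3 months. In all, 27 of the 93 lost their call in every one of these 6 fits, 13 kept it in at least 3 and 2 kept it in all. Fitted on the 6 arrays alone with the prefix term, limma called 63 genes higher and 19 lower, so the excess of falls over rises was not found in that fit. On the 12 wild-type arrays with the prefix term limma called 2 genes.

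**Figure D1:**
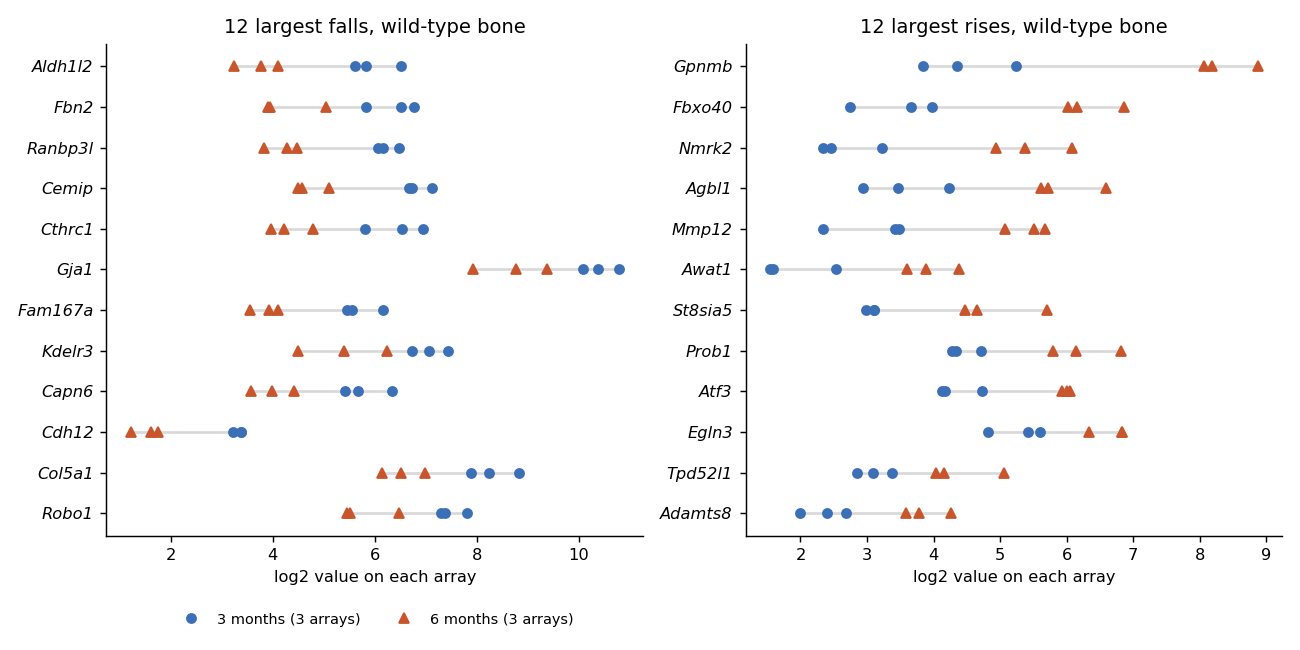
Log2 value on each wild-type array (horizontal axis) for the 12 largest called falls on the left and the 12 largest called rises on the right, with circles for the 3 arrays at 3 months and triangles for the 3 at 6 months. Shown are genes that passed, with predicted genes and variable segments left out; the rows were chosen for having no overlap, and Gpnmb has the widest gap, from at most 5.24 at 3 months to at least 8.07 at 6 months.

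The promoters of 3 of the falling genes are shown because they mark 3 steps of collagen making. Like the letters marked, they were picked after the genes were seen, and Kdelr3 is from the secretory list. Col5a1 encodes a chain of the collagen that starts fibrils, P3h1 a prolyl hydroxylase of collagen in the endoplasmic reticulum, and Kdelr3 a receptor that returns escaped chaperones to that compartment. The sequences are from RefSeq, build GRCm38.p6, plus strand, and end at the base before the annotated gene start. They cover chr2:27886175-27886380 for Col5a1, chr4:119232665-119232914 for P3h1 and chr15:79516158-79516407 for Kdelr3. Capitals mark the letters CCACGT, the reverse of ACGTGG, which are the core of a site type bound by factors of the unfolded protein and secretory responses.
Col5a1: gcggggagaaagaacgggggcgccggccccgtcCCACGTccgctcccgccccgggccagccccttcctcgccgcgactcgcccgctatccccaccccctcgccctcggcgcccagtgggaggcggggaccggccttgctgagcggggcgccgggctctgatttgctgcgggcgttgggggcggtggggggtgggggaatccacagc
P3h1: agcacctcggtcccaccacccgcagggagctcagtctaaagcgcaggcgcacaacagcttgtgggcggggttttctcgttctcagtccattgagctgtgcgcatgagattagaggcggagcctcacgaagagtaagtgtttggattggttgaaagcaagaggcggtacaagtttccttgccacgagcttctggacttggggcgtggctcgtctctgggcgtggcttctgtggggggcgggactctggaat
Kdelr3: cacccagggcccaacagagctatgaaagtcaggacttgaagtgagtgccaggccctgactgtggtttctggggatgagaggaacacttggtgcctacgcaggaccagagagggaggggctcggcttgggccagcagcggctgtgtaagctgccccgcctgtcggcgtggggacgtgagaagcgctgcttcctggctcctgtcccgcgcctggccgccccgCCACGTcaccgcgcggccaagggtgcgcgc
The letters lie 173 bases before the start of Col5a1 and 30 before that of Kdelr3. They are not in the P3h1 window printed, but the promoter of a second P3h1 start, not printed, holds ACGTGG on 1 of its strands and is counted below. Of the 93 genes that passed, 67 had an entry in the promoter table, some with more than 1 start. The search covered the 250 bases before each start in the promoter table. For Col5a1 that window ran past the annotated gene start at which the printed sequence ends. ACGTGG on either strand was found in 10 of 79 promoters of falling genes (12.7%), in 1 of 17 of rising genes (5.88%) and in 6.91% of all 32851 promoters. Counted by gene, it was found in 10 of 53 falling genes and in 2120 of all 27025 genes. The longer form TGACGTGG was found in 2 of the 79 (2.53%), that of Kdelr3 among them, and in 0.563% of all. Both were chosen after the genes were seen, and they overlap each other. The other letters searched on both strands were TGTGGT, the core bound by Runx factors, at 11.4% of falling and 14.0% of all promoters, TATAAA at 6.33% and 12.4%, CCAAT at 29.1% and 33.9%, and TTTGAA at 10.1% and 16.0%. A match is a description of letters and not a site.

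Genes of the collagen matrix were lower at 6 months throughout their list. Of 28 measured genes for fibrillar collagens and their assembly, 3 passed, all downward (Fbn2, Col5a1 and P3h1), and all 28 lay below 0, with a median of -1.24. For 26 of the 28 every 6-month array lay below every 3-month array, as for 8.79% of all genes. The members of a list were read on the same arrays and are not replicates of each other. The list mean was 8.88, 8.40 and 8.43 on the 3-month arrays and 7.88, 6.95 and 7.23 on the 6-month arrays. Replicate 1 at 6 months, the array lowest in erythroid genes, kept the most matrix signal of its group. The groups did not overlap, but the gap between them was narrower than the spread among the 6-month arrays. The list median was -1.67 within prefix HEN513 and -0.83 within HEN753. In bulk tissue fewer cells of a type and less RNA per cell cannot be told apart.

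Fbn2 encodes fibrillin-2, the microfibril protein of growing tissue. It read 6.78, 5.82 and 6.52 at 3 months and 5.04, 3.94 and 3.91 at 6 months, and fell by 2.24 ± 0.30 (SE), or 4.73-fold (limma, adjusted p = 0.00393). The 3-month arrays were all higher, and the call was lost in 1 of the 6 fits that leave out an array. Col5a1 read 8.82, 8.24 and 7.89 and then 6.97, 6.14 and 6.52, and fell by 1.80 ± 0.38 (SE; limma, adjusted p = 0.0484). A second row of the array for Col5a1 gave -0.38 (limma, adjusted p = 0.611), so its rows disagree in size. P3h1 read 8.13, 7.73 and 7.58 and then 6.94, 6.19 and 6.23, and fell by 1.35 ± 0.26 (SE; limma, adjusted p = 0.0347).

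Several members of the same list had larger or similar differences and did not pass. Col5a2, the partner chain of Col5a1, read 10.23, 9.82 and 9.37 and then 8.46, 7.16 and 7.58, a difference of -2.17 (limma, adjusted p = 0.0899). Lox, the main cross-linking oxidase, differed by -1.91 (adjusted p = 0.0867 by limma), Col3a1 by -1.88 and Serpinh1, the collagen chaperone, by -1.51 (adjusted p = 0.0581 by limma). Col1a1 read 13.22, 13.04 and 12.90 and then 12.48, 11.93 and 11.99, a difference of -0.98 (limma, adjusted p = 0.242). Its groups did not overlap. These members, like the genes in the next 2 paragraphs that are neither among the 12 largest falls nor in a list, were picked after their values were seen.

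Other genes that passed belong to the same steps, chosen here by their known function. In the endoplasmic reticulum, the prolyl isomerases Fkbp7 fell by 1.54, Ppic by 1.44 and Fkbp14 by 1.18, and the disulfide isomerase Pdia5 by 1.15. Kdelr3 read 7.44, 6.73 and 7.06 at 3 months and 6.24, 4.50 and 5.39 at 6 months, and fell by 1.89 ± 0.39 (SE; limma, adjusted p = 0.0484). Its 6-month arrays spread over nearly as wide a range as the fall itself. Sec24d, a coat protein of the vesicles that export collagen, fell by 1.12, the ribosome-binding protein Rrbp1 by 0.83, and Ostc, a subunit of the enzyme that adds sugars to new proteins, by 0.71. Outside the cell, Loxl3, a cross-linking oxidase, fell by 0.89 and Thbs1, a matrix glycoprotein, by 0.71. Apart from these steps, Chpf, which lengthens chondroitin chains, fell by 1.04.

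The wider secretory pathway lay closer to 0. Of 29 secretory and chaperone genes, 2 passed, Kdelr3 and Sec24d, where 0.329% of all genes passed as lower. Below 0 lay 25 of the 29, against 51.6% of all genes, but the list median was -0.18. Creb3l1, the membrane-bound factor that drives collagen secretion genes in osteoblasts, read 9.12, 8.53 and 7.70 and then 7.66, 6.03 and 6.64, a difference of -1.77 (limma, adjusted p = 0.0922). Its groups came within 0.04 of each other, since replicate 1 at 6 months nearly reached replicate 3 at 3 months.

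Osteoblast markers all lay lower at 6 months, and 1 of them passed. The 14 measured markers lay below 0, between -0.82 and -2.12, with a median of -1.20. Of the 14, 10 separated the groups fully, as did 8.79% of all genes downward. The list mean was 9.84, 9.33 and 9.40 at 3 months and 8.92, 7.78 and 8.36 at 6 months. Its median was -1.74 within prefix HEN513 and -0.67 within HEN753, so its size depends on the arrays paired. Kazald1, a secreted growth-factor-binding-like protein of osteoblasts, read 8.07, 7.31 and 7.56 and then 6.61, 5.77 and 6.05, and fell by 1.62 ± 0.34 (SE; limma, adjusted p = 0.0484). All 3 of its 6-month values lay below the 3-month range, and its call was lost in each of the 6 fits that leave out an array.

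The best-known osteoblast genes are given as values. Omd, a leucine-rich proteoglycan of bone, read 7.91, 6.89 and 7.58 at 3 months and 6.06, 4.93 and 5.70 at 6 months, a difference of -2.12 that missed the threshold by little (limma, adjusted p = 0.0505). Bglap, which encodes osteocalcin, read 7.79, 6.47 and 6.14 and then 5.74, 4.63 and 4.73, a difference of -1.71 (limma, adjusted p = 0.145). Its groups did not overlap. Smpd3, a sphingomyelinase needed for mineralisation, differed by -1.89, Alpl, the alkaline phosphatase, by -1.16 and Ibsp by -0.82. In the mineral handling list 1 of 14 genes passed: Slc20a2, a phosphate carrier, read 9.41, 8.80 and 9.12 at 3 months, averaged 7.94 ± 0.063 (SD, n = 3) at 6 months and fell by 1.22 ± 0.22 (SE; limma, adjusted p = 0.0293). Its 6-month arrays were tightly grouped and all lower. That list had a median of -0.33, and 10 of its 14 genes lay below 0. Of all genes, 51.6% lay below 0 and 0.329% passed as lower. Sgms2, a sphingomyelin synthase in which mutations cause brittle bone, also passed and fell by 1.20. It is in no list and was picked after its value was seen.

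Osteocyte and osteoclast genes had smaller median differences. None of 15 osteocyte genes passed, 9 lay below 0 and the median was -0.08. Sost, the osteocyte inhibitor of bone formation, read 6.89, 6.93 and 8.29 at 3 months and 9.51, 8.47 and 8.93 at 6 months, a difference of 1.15 (limma, adjusted p = 0.119). All 3 of its 6-month arrays were higher. Dmp1, another osteocyte matrix gene, differed by -0.82. None of 20 osteoclast genes passed, although 18 lay below 0, with a median of -0.26. Ctsk, the collagen-cutting protease of osteoclasts, read 9.92, 10.03 and 9.98 and then 9.78, 8.47 and 8.45, a difference of -1.11 (limma, adjusted p = 0.262). Replicate 1 at 6 months stayed near the 3-month level. Acp5, the acid phosphatase of osteoclasts, differed by -0.53.

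Growth-plate cartilage genes mostly lay below 0 and none passed. Of 20 genes of resting and columnar cartilage 0 passed, 18 lay below 0 and the median was -0.38. Of 15 hypertrophic genes 0 passed, 11 lay below 0, against 51.6% of all genes, and the median was -0.62. Ibsp, Pth1r, Alpl and Sp7 are also in the osteoblast list, where every measured gene lay below 0, so they count in both lists. Col10a1, the collagen made by enlarged cartilage cells, read 6.24, 8.03 and 5.07 at 3 months and 2.70, 2.52 and 2.52 at 6 months. Its 3-month arrays spread over almost 3 log2 units while its 6-month arrays lay together near the low end of the scale, and the difference was -3.32 (limma, adjusted p = 0.0937). Acan, the large cartilage proteoglycan, read 7.89, 7.86 and 6.81 and then 5.80, 4.83 and 4.29, a difference of -2.42 (limma, adjusted p = 0.349). Col2a1, the main cartilage collagen, read 9.37, 9.93 and 8.11 and then 8.97, 8.32 and 7.76, so its groups overlapped, and its difference was -0.53 over all arrays and 0.26 within HEN753. Mmp13, a collagenase of hypertrophic cartilage and osteoblasts, differed by -1.62. Ihh, the signal that paces cartilage growth, differed by 0.43. The cartilage list medians also moved with the prefix, from -1.27 and -1.29 within HEN513 to -0.24 and -0.20 within HEN753.

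**Figure D2:**
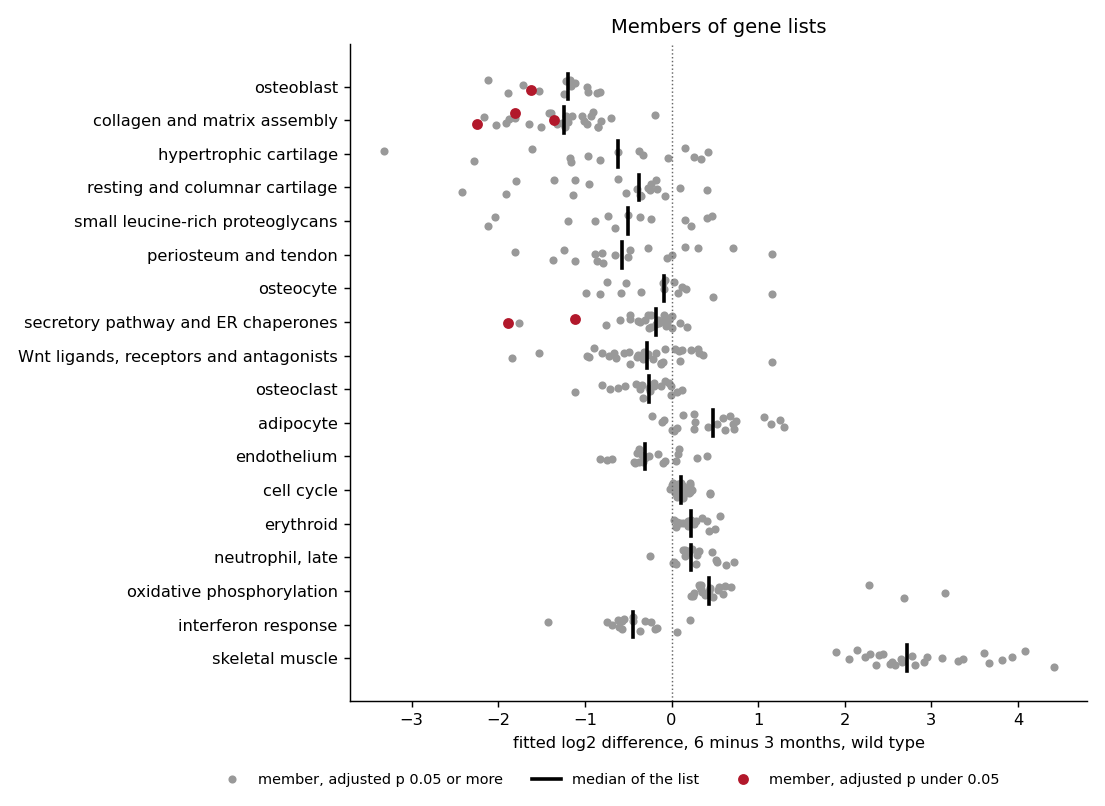
Fitted log2 difference, 6 minus 3 months in wild-type bone, of each member of the gene lists shown (points, red where the adjusted p by limma was under 0.05), with the list median as a bar. All 14 osteoblast and all 28 collagen genes lie below 0 and all 26 skeletal muscle genes above 0, while the osteocyte median is -0.08 and the cell cycle median 0.11.

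The other large falls that passed are given one by one. Aldh1l2, a mitochondrial folate enzyme, had the largest fall of all called genes: it read 6.51, 5.62 and 5.83 at 3 months and 4.10, 3.25 and 3.78 at 6 months, and fell by 2.50 ± 0.43 (SE), or 5.65-fold (limma, adjusted p = 0.0209). The groups were more than 1.5 log2 units apart at their closest. Gja1, which encodes connexin 43, the channel that joins osteoblasts and osteocytes, read 10.78, 10.07 and 10.37 and then 9.37, 7.92 and 8.76, and fell by 1.92 ± 0.37 (SE; limma, adjusted p = 0.0361). Cdh12, a cadherin, read 3.22, 3.37 and 3.38 and then 1.61, 1.22 and 1.75, and fell by 1.81 ± 0.21 (SE; limma, adjusted p = 0.000774). Cdh12 had the lowest p of the falls and was called in all 6 fits that leave out an array, but its signal is low on this scale. Pgbd5, a transposase-derived gene picked after its values were seen, fell by 1.63 and was called in 5 of the 6.

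The other 6 of the 12 largest called falls were alike in size. Ranbp3l, a Ran-binding protein linked to export of BMP-activated Smads, fell by 2.13 (limma, adjusted p = 0.016), and Cemip, which takes part in breaking down hyaluronan, by 2.12 (limma, adjusted p = 0.0484). Cthrc1, a secreted glycoprotein of bone and wound matrix, read 6.95, 6.53 and 5.81 and then 4.79, 3.97 and 4.22, and fell by 2.09. Fam167a fell by 1.92, Capn6, a calpain without protease activity, by 1.83 and Robo1, a receptor of Slit guidance proteins, by 1.80. The guidance receptors Unc5c, which fell by 1.31, and Plxna2, which fell by 1.19, were picked from the called falls after their values were seen. Guidance receptors were not read as a list.

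Signalling lists held few genes that passed. None of 33 Wnt ligands, receptors and antagonists did, and their median was -0.28. The largest differences in that list were those of the secreted antagonists Sfrp2 (-1.85, with -0.14 on a second row) and Wif1 (-1.53; limma, adjusted p = 0.12). Wif1 read 9.71, 9.47 and 9.81 at 3 months and 8.96, 7.68 and 8.46 at 6 months, with no overlap. Outside the list, 2 inhibitors of Wnt signalling passed, Apcdd1, which fell by 1.67, and Nkd2, which fell by 1.61. Both were picked from the called falls after their values were seen. None of 40 BMP and TGF-beta genes (median -0.13), 18 FGF genes (median -0.23) or 11 hedgehog and PTHrP genes (median -0.55) passed. Gli3, the repressor at the end of the hedgehog pathway, read 6.58, 5.88 and 5.92 and then 5.23, 4.68 and 4.89, a difference of -1.26 (limma, adjusted p = 0.0505).

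Among growth-regulating genes 1 passed. None of 22 growth hormone and IGF genes passed, and their median was -0.13. Igf1 differed by -0.27 and Igf2 by 0.21, and the Igf2 sign turned without replicate 2 at 6 months. Pappa, a protease that frees IGF from its binding proteins, read 7.19, 7.06 and 6.93 and then 6.24, 5.79 and 5.93, a difference of -1.16 (limma, adjusted p = 0.0676). Of 26 imprinted and juvenile growth genes, 21 lay below 0, against 51.6% of all genes, with a median of -0.18. Of the 26, 1 passed as lower, against 0.329% of all genes. This was Mest, an imprinted gene of growing mesenchyme, which read 6.47, 6.05 and 6.21 and then 5.43, 4.85 and 5.46 and fell by 1.09 ± 0.22 (SE; limma, adjusted p = 0.0454). Ptn, the growth factor pleiotrophin, differed by -2.13 (limma, adjusted p = 0.0645). Of 35 cell cycle genes 34 lay above 0, at a median of only 0.11, and 0 passed. Mki67 differed by 0.08 and Top2a by 0.08, and both signs turned when an array was left out. The cell cycle list mean was 7.56 on replicate 1 at 6 months and between 7.83 and 8.18 on the other arrays.

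**Figure D3:**
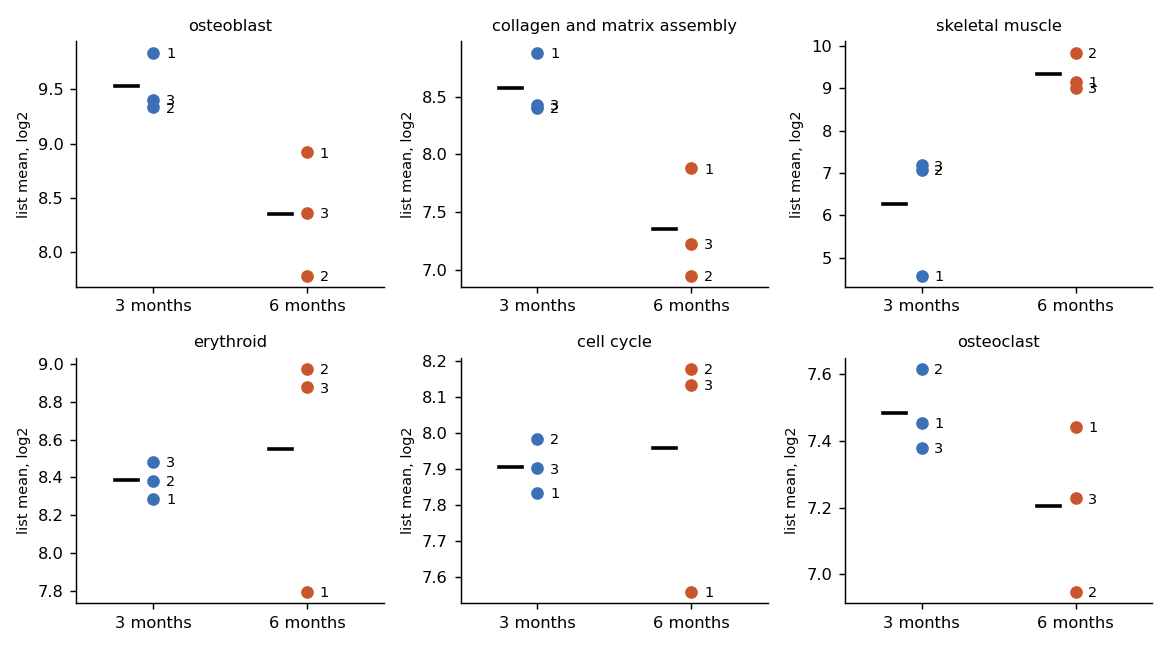
Mean log2 value of the members of 6 gene lists on each array (points, numbered by replicate), with the group mean as a bar, at 3 and 6 months in wild-type bone. Replicate 1 at 6 months is the highest of its group for osteoblast and collagen genes and the lowest for erythroid (7.80) and cell cycle (7.56) genes, and replicate 1 at 3 months is the lowest for muscle (4.58).

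Gpnmb had the largest rise among the genes that passed. It encodes a membrane glycoprotein of osteoclasts, osteoblasts and lipid-laden macrophages, also called osteoactivin. It read 4.35, 3.84 and 5.24 at 3 months and 8.07, 8.18 and 8.88 at 6 months, and rose by 3.77 ± 0.43 (SE), or 13.7-fold (limma, adjusted p = 0.000774). No array came close to the other group, all 6 fits that leave out an array called it, and the difference was 4.09 within prefix HEN513 and 3.24 within HEN753. Fitted with the mean of the muscle list as a covariate it was 4.34 (limma, adjusted p = 0.00377).

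Among the other called rises are Mmp12, Fabp5 and Ctsd. Mmp12, the elastase of macrophages, read 3.42, 2.34 and 3.48 at 3 months and 5.67, 5.07 and 5.51 at 6 months, and rose by 2.23 ± 0.40 (SE; limma, adjusted p = 0.0232). Its groups did not overlap. Fabp5, a fatty acid carrier, read 6.00, 5.20 and 5.35 and then 6.45, 7.07 and 6.57, and rose by 1.33 ± 0.24 (SE; limma, adjusted p = 0.0232). Its closest arrays were under 0.5 apart, and of its 4 rows on the array the smallest difference was 0.53 (limma, adjusted p = 0.11). Ctsd, a lysosomal protease, read 10.17, 10.26 and 10.13 and then 10.60, 10.77 and 10.73, and rose by 0.59 ± 0.12 (SE; limma, adjusted p = 0.0454). Fabp5 and Ctsd were picked from the called genes after their values were seen. The list of 20 macrophage and monocyte genes held none of them: 0 passed, 8 lay above 0 and the median was -0.06.

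Skeletal muscle genes read higher on the 6-month arrays, though none passed. All 26 skeletal muscle genes lay above 0, between 1.89 and 4.41. In all of them every 6-month array lay above every 3-month array, as in 6.95% of all genes. Their median was 2.72, or 1.82 without replicate 1 at 3 months. All 26 had an unadjusted p under 0.05 by limma, as had 11.4% of all genes in either direction. Myoglobin (Mb) read 2.86, 5.14 and 6.14 and then 8.46, 9.21 and 8.54, a difference of 3.81 (limma, adjusted p = 0.057). Acta1, skeletal actin, read 7.21, 10.49 and 10.34 and then 12.08, 12.45 and 11.86, a difference of 2.58 (limma, adjusted p = 0.19). In both genes replicate 1 at 3 months was lowest by far. The 13 myogenic regulator and embryonic muscle genes had a median of 0.19, with 9 above 0 and 0 called.

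Several of the called rises moved with this muscle signal. Fbxo40, a ubiquitin ligase adaptor of muscle, read 2.74, 3.66 and 3.97 and then 6.02, 6.86 and 6.16, and rose by 2.83 ± 0.59 (SE; limma, adjusted p = 0.0484). Fitted with that list's mean as a covariate, its difference was 0.98. Nmrk2, a nicotinamide riboside kinase of muscle, rose by 2.79 (limma, adjusted p = 0.0412), against 1.41 with the covariate. Agbl1, which trims glutamates from proteins, rose by 2.41 (1.06 with the covariate), St8sia5, a sialyltransferase, by 2.04 (1.01), Prob1 by 1.92 (0.70) and Tpd52l1 by 1.40 (0.67). A second row for St8sia5 gave 0.07. With the covariate limma called 7 genes in all, 4 lower (Ranbp3l, Cdh12, Apcdd1 and Slc20a2) and 3 higher (Gpnmb, Fabp5 and 1 immunoglobulin variable segment), and all 73 falls and 20 rises kept their sign. The muscle list's own median was -0.17 in that fit, a value small by construction, since the covariate is that list's mean. The list mean also separated the ages fully on these arrays, so the covariate and age cannot be fully told apart.

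The rest of the 12 largest called rises are given with the covariate's value in parentheses. Awat1, an acyltransferase that makes wax esters, read 2.54, 1.59 and 1.54 and then 3.60, 3.89 and 4.38, and rose by 2.20 (2.96 with the covariate). Atf3, a stress-induced transcription factor, read 4.18, 4.13 and 4.73 and then 5.93, 6.00 and 6.05, and rose by 1.60 ± 0.31 (SE; limma, adjusted p = 0.0362; 1.39 with the covariate). It was the 1 gene of 20 immediate early genes that passed, and that list had a median of -0.02. Egln3, an oxygen-sensing prolyl hydroxylase, rose by 1.48 (1.21) and Adamts8, a secreted protease, by 1.35 (1.27). A second row for Adamts8 gave 0.04. The names not described one by one, since the naming rule leaves them to a count, were 3 among the rises and 3 among the falls.

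Energy and fat genes lay above 0 alongside muscle. All 20 oxidative phosphorylation genes were above 0, with a median of 0.44 and 0 called. For 13 of them the groups did not overlap, as for 6.95% of all genes upward. The 3 largest differences were those of muscle forms of cytochrome oxidase subunits. Of these Cox8b differed by 3.15 and Cox6a2 by 2.69, against 0.41 and 0.65 with the muscle covariate, and the list median was then 0.14. Of 22 adipocyte genes 19 lay above 0, with a median of 0.47 (0.17 with the covariate) and 0 called. Slc2a4, the glucose transporter shared by fat and muscle, differed by 1.30 (limma, adjusted p = 0.114), Plin4, a lipid-droplet protein, by 1.25 and Cd36, a fatty acid transporter, by 1.07. Adipoq, which encodes the hormone adiponectin and is specific to fat, read 6.19, 6.45 and 6.72 and then 7.02, 6.68 and 6.75, a difference of 0.26. Its groups overlapped.

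Marrow lists had no gene that passed. Above 0 lay 15 of 15 erythroid genes (median 0.23), 13 of 14 megakaryocyte genes (0.20), 17 of 18 late neutrophil genes (0.22) and 8 of 10 early neutrophil genes (0.12), where 48.4% of all genes did. The mast cell, basophil and eosinophil list (14 genes) had 0.07, B cell precursors (17) 0.11, mature B cells (13) 0.09, and T and NK cells (16) 0.03. The erythroid median was 0.65 within prefix HEN513 and -0.21 within HEN753. In the same order, the megakaryocyte median was 0.66 and -0.25 and the mature B cell median 0.29 and -0.13. For B cell precursors it was -0.26 and 0.27. The other marrow lists named here kept medians above 0 within each prefix. Plasma cell genes (13) had a median of 0.25. Jchain, the joining chain of secreted antibodies, read 6.92, 7.44 and 7.09 at 3 months and 9.01, 9.06 and 8.71 at 6 months, a difference of 1.92 (limma, adjusted p = 0.0983). Its groups lay more than 1 log2 unit apart. Ighg3, an antibody heavy chain, differed by 1.18.

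Other lists had no member that passed either. The medians were -0.50 for 13 small leucine-rich proteoglycans, -0.44 for 20 matrix proteases and inhibitors, -0.58 for 18 periosteum and tendon genes, -0.12 for 16 marrow stromal genes, -0.31 for 21 endothelial genes and -0.06 for 11 nerve and Schwann cell genes. They were 0.08 for 20 glucocorticoid response genes, 0.01 for 9 glucocorticoid handling genes, -0.10 for 15 clock genes and -0.22 for 14 senescence and inflammation genes. Lum, the proteoglycan lumican, read 10.68, 9.90 and 10.14 and then 9.09, 7.72 and 8.23, a difference of -2.04 (limma, adjusted p = 0.0983). Of 17 interferon response genes 15 lay below 0, with a median of -0.45, -0.19 within prefix HEN513 and -0.97 within HEN753. Their list mean was 4.93, 4.80 and 5.40 at 3 months and 4.47, 4.73 and 4.47 at 6 months, with replicate 3 at 3 months the highest.

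The same age step was measured on 6 other arrays, of HSD2OB-tg bone. There 590 genes (2.66%) passed as lower and 57 (0.257%) as higher. All 73 genes that fell in wild type lay below 0 in the transgenic arrays, where 48.3% of all genes did, and 69 of the 73 passed there too. Their median was -1.28 in wild type and -1.46 in HSD2OB-tg. Of the 20 genes that rose, 19 lay above 0 in HSD2OB-tg, where 51.7% of all genes did, and 5 passed. The exception is an olfactory receptor gene. Their median was 1.76 in wild type and 0.96 in HSD2OB-tg. Passing in wild type chose these genes, which favours larger differences there, so the 2 medians do not compare the genotypes. Gpnmb rose in both, by 3.77 and 3.06 (limma, adjusted p = 0.00139 in HSD2OB-tg), Mmp12 by 2.23 and 1.64 (adjusted p = 0.0261 by limma), and Fabp5 by 1.33 and 1.01 (adjusted p = 0.0215 by limma). The 2 sets of arrays share no sample. However, 1 fit estimates both differences, their spread and the prefix term, so the 2 differences are not fully independent.

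No gene passed a test of the genotypes' difference in this step. By limma the difference of the 2 steps gave 0 genes at an adjusted p of 0.05 and 747 (3.37%) at an unadjusted p under 0.05. Among the 93 called genes 9 had an unadjusted p under 0.05, 3 of the falls and 6 of the rises, and the lowest adjusted p was 0.99998. The 93 were chosen by their wild-type step, which itself favours a gap between the steps. Cdh12 was one of them: it fell by 1.81 in wild type and differed by -0.57 in HSD2OB-tg, a gap of -1.24 (limma, unadjusted p = 0.000388). A gap of this size missing the threshold does not show that the steps are alike.

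Several lists with few called genes in wild type had more in HSD2OB-tg, where 2.66% of all genes passed as lower. Of the 14 osteoblast genes 13 passed as lower there (median -1.67, against -1.20 in wild type), and of the 28 collagen genes 25 (median -1.69, against -1.24). Hypertrophic cartilage had 9 of 15 (median -1.44, against -0.62) and columnar cartilage 7 of 20 (median -1.89, against -0.38). Ibsp, Pth1r, Alpl and Sp7 count in both the osteoblast and the hypertrophic list. The columnar list mean at 3 months was 6.15 ± 1.31 in HSD2OB-tg and 5.12 ± 0.58 in wild type (SD, n = 3 each). No list was tested between genotypes. Col10a1 fell by 4.64 in HSD2OB-tg (limma, adjusted p = 0.00795), and its difference in wild type was -3.32. For Col2a1 the gap between the 2 steps was 1.82 (limma, unadjusted p = 0.0461), which did not pass adjustment. The muscle list had medians of 2.72 and 2.23.

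**Figure D4:**
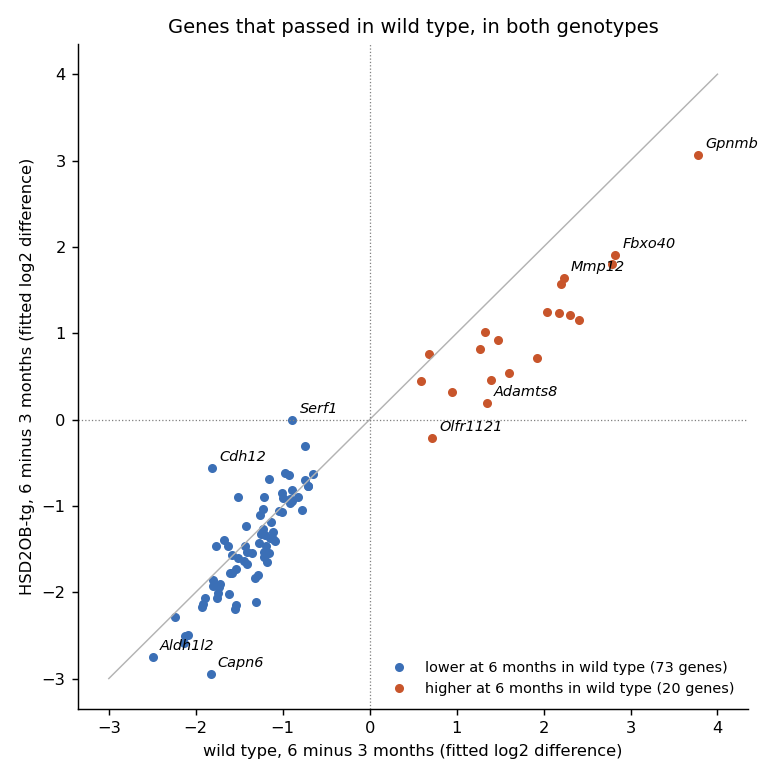
Fitted log2 difference, 6 minus 3 months, in wild type (horizontal axis) and in HSD2OB-tg (vertical axis) for the 93 genes that passed in wild type, with a grey line of equal differences. The 73 genes lower in wild type all lie below 0 on the vertical axis, and most of the 20 higher genes lie above 0 but under the line, with a median of 1.76 in wild type and 0.96 in HSD2OB-tg. Passing in wild type chose these genes, which favours larger differences on the horizontal axis.

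Levels in wild-type bone at 12 and 18 months are given with no test and no prefix term. All 3 arrays at 12 months and replicate 1 at 18 months have another prefix, HEN679, found on no array of 3 or 6 months, so at 12 months age and prefix cannot be told apart. Fbn2 averaged 6.37 at 3 months, 4.30 at 6, 4.27 at 12 and 4.07 at 18 months, and Aldh1l2 averaged 5.99, 3.71, 3.56 and 3.56. The osteoblast list mean was 9.53 ± 0.27 at 3 months, 8.36 ± 0.57 at 6, 7.62 ± 0.37 at 12 and 7.79 ± 0.36 at 18 months (SD, n = 3 each). Gpnmb averaged 4.47 ± 0.70, 8.38 ± 0.44, 6.49 and 7.08 at the 4 ages. Mmp12 averaged 3.08, 5.42, 3.16 and 3.97, and Fabp5 5.52, 6.70, 6.51 and 6.53. Sost, which did not pass, averaged 7.37, 8.97, 6.58 and 7.25.

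**Figure D5:**
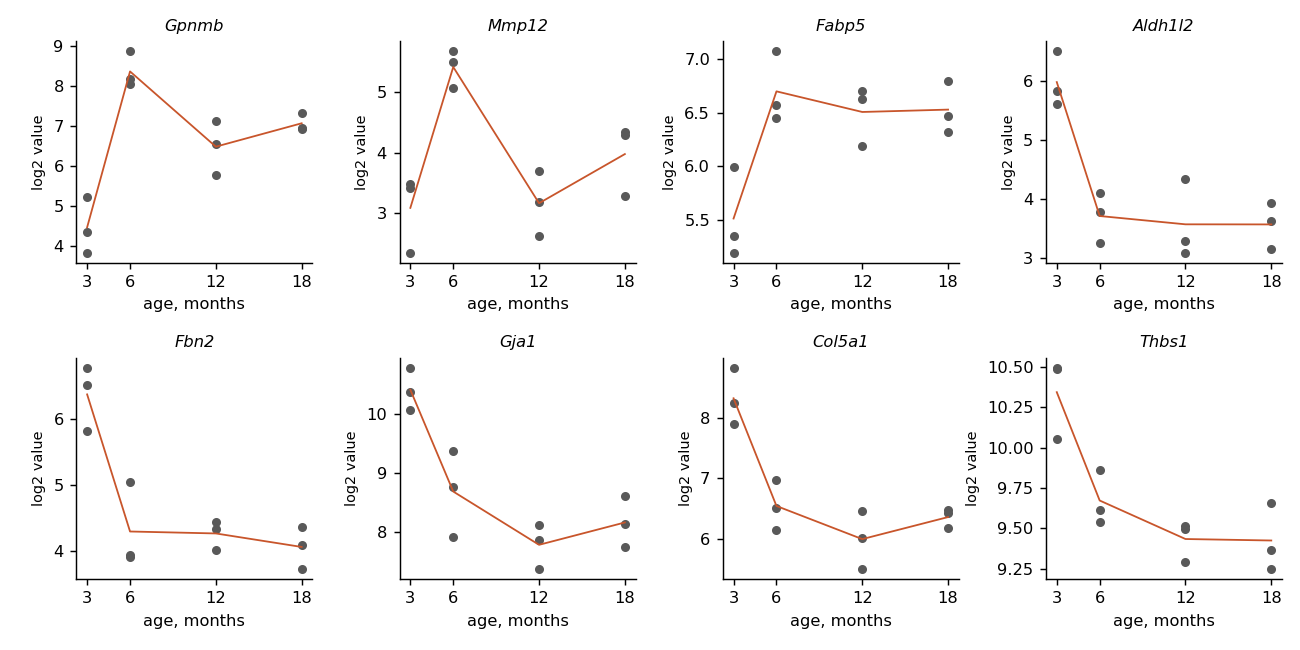
Log2 value on each wild-type array (points) and the group mean (line) against age in months for 8 genes that passed between 3 and 6 months. Gpnmb and Mmp12 have their highest mean at 6 months (8.38 and 5.42), while Aldh1l2 and Fbn2 are at 3.71 and 4.30 at 6 months and at 3.56 and 4.07 at 18 months.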

How the data were processed

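RNA of tibia and femur was hybridised to Affymetrix Mouse Gene 2.1 ST arrays, 24 in 8 groups of 3. The deposited log2 values, 1 per row and array, were used as given. The submitters' processing notes name MAS5 alone, without a version; per the values, the log base was inferred from the range (0.0921 to 13.7). Array medians lay between 3.55 and 3.64. Of 41034 rows 23521 had 1 gene symbol, 1814 several and 15699 none; 23328 matched RefSeq (GRCm38.p6, names only). The row with the highest mean stood for each of 1082 genes with several rows.

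The model was limma's lmFit and eBayes (version 3.58.1, R 4.3.3) over all 24 arrays, with terms for group and code prefix (14 residual degrees of freedom), two-sided, adjusted over 22180 genes by Benjamini-Hochberg. Rows without a single symbol were kept apart: 0 of 17513 passed by limma, and 1219 had an unadjusted p under 0.05. Named were the 12 largest rises and falls among called, non-overlapping genes (predicted genes, small RNAs, receptor families and variable segments left out), up to 4 called members of each of 41 lists or the 2 of lowest p, and a set of bone genes. Members and lists were chosen with earlier results of these data known, and no list was tested. On simulated data of 22180 genes for this comparison, 14%, 72%, 98% and 100% of changes of 0.5, 1, 2 and 3 (log2) were recovered. The noise was drawn independently for each gene, and the changed genes were picked at random. The shares therefore do not describe genes with a wide spread between arrays, such as those of muscle. The number of arrays limits the precision. Alternatives changed the prefix term, replicate block, scaling, filter, rows, variance model, arrays fitted, fold minimum, muscle covariate and single arrays.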

Additional observations from a re-analysis of the deposited data

How the results depend on the processing

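The count of 93 genes kept its order of size under some choices and not others. It was 82 on the 6 arrays with the prefix term, 95 with every row, 105 with the mean of rows, 134 with a filter at the 25th percentile, 106 within prefix HEN513, and 93 with robust variance or a 1.5-fold minimum. It was 140 after quantile normalization, 144 after median centring, 150 with trended variance, 382 with array weights and 240 on the 6 arrays with no prefix term. It was 26 with no prefix term, 2 on the 12 wild-type arrays, 7 with the muscle covariate, and 0 within prefix HEN753 by limma, where 1512 genes had an unadjusted p under 0.05 and the 3-month group is 1 array. Within HEN513 the 6-month group is 1 array. Such a lone array is assumed to vary like the other groups. Leaving out 1 array gave 3 to 88. The split between rises and falls was 20 to 73 in the report, 84 to 22 within HEN513, 63 to 19 on the 6 arrays with the prefix term and 173 to 67 without it. The cause was not tested.

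Whether replicate numbers pair the samples could not be settled from the deviations of arrays from their group means. Same-numbered arrays had correlations of deviations of 0.06, 0.10 and 0.02 across genes, not all over 0.1. The other pairs ran from -0.09 to 0.04. Replicate 3 at 6 months correlated more with replicate 1 at 3 months than with replicate 3. With the replicate number as a block limma called 30 genes with the prefix term and 25 without it, and the difference between genotypes stayed at 0 genes under all alternatives run for it.

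Over all alternatives, the 93 called genes kept their call in 1126 of 2229 cases, lost it in 1103 and never turned sign, which the separation of their groups largely fixes. Of 943 list medians 76 moved by more than the replicate spread. Signs turned for 13 of the genes that did not pass. With the muscle covariate Abcb1a was -0.28, Acta1 -0.26, Hsd11b2 0.088, Igf2 -0.0065 and Pdk4 -0.41. Within HEN753 Col2a1 was 0.26, Hsd11b2 0.029, Igf2 -0.39, Il1a -0.075, Mki67 -0.024, Ms4a1 -0.43, Selp -0.026 and Tubb1 -0.29, and within HEN513 S100a8 was -0.25. Without replicate 2 at 6 months Igf2 was -0.20, Mki67 -0.021 and Ms4a1 -0.21, and without replicate 3 at 6 months Mki67 was -0.016. Leaving out 1 array gave Igf2 -0.20 to 0.50, Mki67 -0.021 to 0.24, Ms4a1 -0.21 to 0.72 and Top2a -0.00015 to 0.14. Top2a was -0.019 with no prefix term, on the 6 arrays with no prefix term and with the replicate block and no prefix term, and -0.00015 without replicate 1 at 3 months. The cause was not tested.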
